A study of Rattus norvegicus with 8 samples.

Results

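The antioxidant and NRF2 target genes Hmox1, Nqo1, Gclc, Gclm, Txnrd1, Srxn1, Sod1, Sod2, Cat and Gpx1 were followed in rat annulus fibrosus cells (AFCs), the fibroblast-like cells of the outer ring of the intervertebral disc. The 10 genes were taken by their symbol from a table of 31699 rows. A row was found for 9 of them, and Srxn1 was not analysed here. RNA-seq had been performed on 2 groups of 4 samples, labelled Lv-Ctrl and Lv-Piezo1. Both groups were AFCs of the third passage from Sprague Dawley rats, whose age is not given for the cell isolation. Lv-Ctrl samples had received the empty vector pLVX-shRNA-Puro, and Lv-Piezo1 samples the vector pLVX-shRNA-Puro-Piezo1, which encodes a short hairpin RNA against the mechanosensitive ion channel Piezo1. Infection lasted 24 h at a multiplicity of infection of 20. All samples, controls included, were stretched at 20% elongation and 0.5 Hz for 36 h. An unstretched group was not analysed here, so no value below gives the effect of stretch. The samples of a group are repeats of the cell experiment, each from an isolation that pooled tissue of 8 rats, and p-values measure the spread between these repeats. The paper describes at most 4 independent repeats, with the treatments applied to the cells of each, which implies that the groups share isolations. The sources do not say which samples belong together, and the main tests did not pair them.

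NRF2, encoded by Nfe2l2, is the transcription factor that raises detoxifying and reducing enzymes under oxidative or electrophilic stress. The adaptor KEAP1 holds it for degradation in unstressed cells, and the repressor BACH1 competes with it at the antioxidant response element (ARE) of target promoters. Heme oxygenase 1 (Hmox1), the quinone reductase Nqo1, both subunits of glutamate-cysteine ligase (Gclc and Gclm), thioredoxin reductase 1 (Txnrd1) and sulfiredoxin (Srxn1) are classical targets. Sod1, Sod2, Cat and Gpx1 carry out the basal clearance of superoxide and peroxide. Disc cells live in a tissue with few vessels, and oxidative stress is a known feature of disc degeneration.

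The deposited values are TPM, a transcript level scaled to the same total in every sample and corrected for transcript length, so that genes can be compared with each other. How deeply each sample was sequenced cannot be read from TPM and is unknown. The number of rows with a value above 0 was 16645 to 17022 per sample under the Lv-Ctrl label and 17191 to 17657 under the Lv-Piezo1 label. Differences are log2 fold changes on the log2(TPM + 1) scale, Lv-Piezo1 minus Lv-Ctrl, with the standard error (SE), from limma fitted across the 13103 genes whose TPM averaged 1 or more. On that scale the change of a weakly expressed gene appears smaller than it is. Passing the test means a Benjamini-Hochberg adjusted p below 0.05 over all these genes, and a gene is called where it also differs by at least 2-fold. The median log2 fold change over all tested genes was 0.14 with the deposited values and -0.0046 after median-ratio scaling. With the deposited values 1005 genes were called and 64.1% of them were higher. Median-ratio scaling called 982 genes, 52.3% of them higher, and quantile normalization 948 genes, 48.8% of them higher.

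The RNA level of the targeted gene went against the labels, although the paper reports that the knockdown by this vector was verified. Protein was not examined here. Piezo1 was at 31.1, 33.0, 26.7 and 29.5 TPM under the Lv-Ctrl label and at 38.1, 37.7, 40.2 and 41.4 TPM under the Lv-Piezo1 label. The groups did not overlap, and Piezo1 was higher under the knockdown label (log2 fold change 0.38, SE 0.06, limma adjusted p = 8.57e-04). Every direction below is therefore given by the label of the samples. Of the 12 fibroblast and annulus markers, 11 had a mean of at least 1 TPM, and the tenocyte marker Tnmd was below 1 TPM in every sample. These markers also differed between the groups, with 6 higher and 4 lower of the 11 tested and a summed level of 9349 to 10441 TPM under the Lv-Ctrl label and 13780 to 14791 TPM under the Lv-Piezo1 label. The rise of the sum came mainly from Col1a1 (3282 ± 137 and 5835 ± 103 TPM), Col1a2 (2316 ± 141 and 3795 ± 159 TPM) and Bgn (2219 ± 91.8 and 2817 ± 109 TPM). The called markers were Thbs4 (56.4 ± 2.95 and 529 ± 15.9 TPM), Dcn (1456 ± 69.3 and 519 ± 14.9 TPM) and Cilp (6.65 ± 0.963 and 1.45 ± 0.229 TPM).

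Of the 9 members measured, 4 were higher at an adjusted p below 0.05 (Hmox1, Txnrd1, Gclc and Sod2), 4 were lower (Nqo1, Sod1, Gclm and Gpx1), and Cat did not pass the test. Over all tested genes, 41.9% were higher and 16.3% were lower at this limit with the deposited values, but this imbalance depended on the scaling, with 3657 genes higher and 3651 lower after median-ratio scaling and 3757 and 3579 after quantile normalization. Only Hmox1 reached 2-fold among the members, where 7.67% of all tested genes were called. The groups did not overlap for 8 members, against 54.2% of all tested genes. The median log2 fold change of the 9 members was -0.16, beside 0.14 over all tested genes. In bulk RNA, fewer cells of a type and less RNA per cell cannot be told apart.

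**Figure D1:**
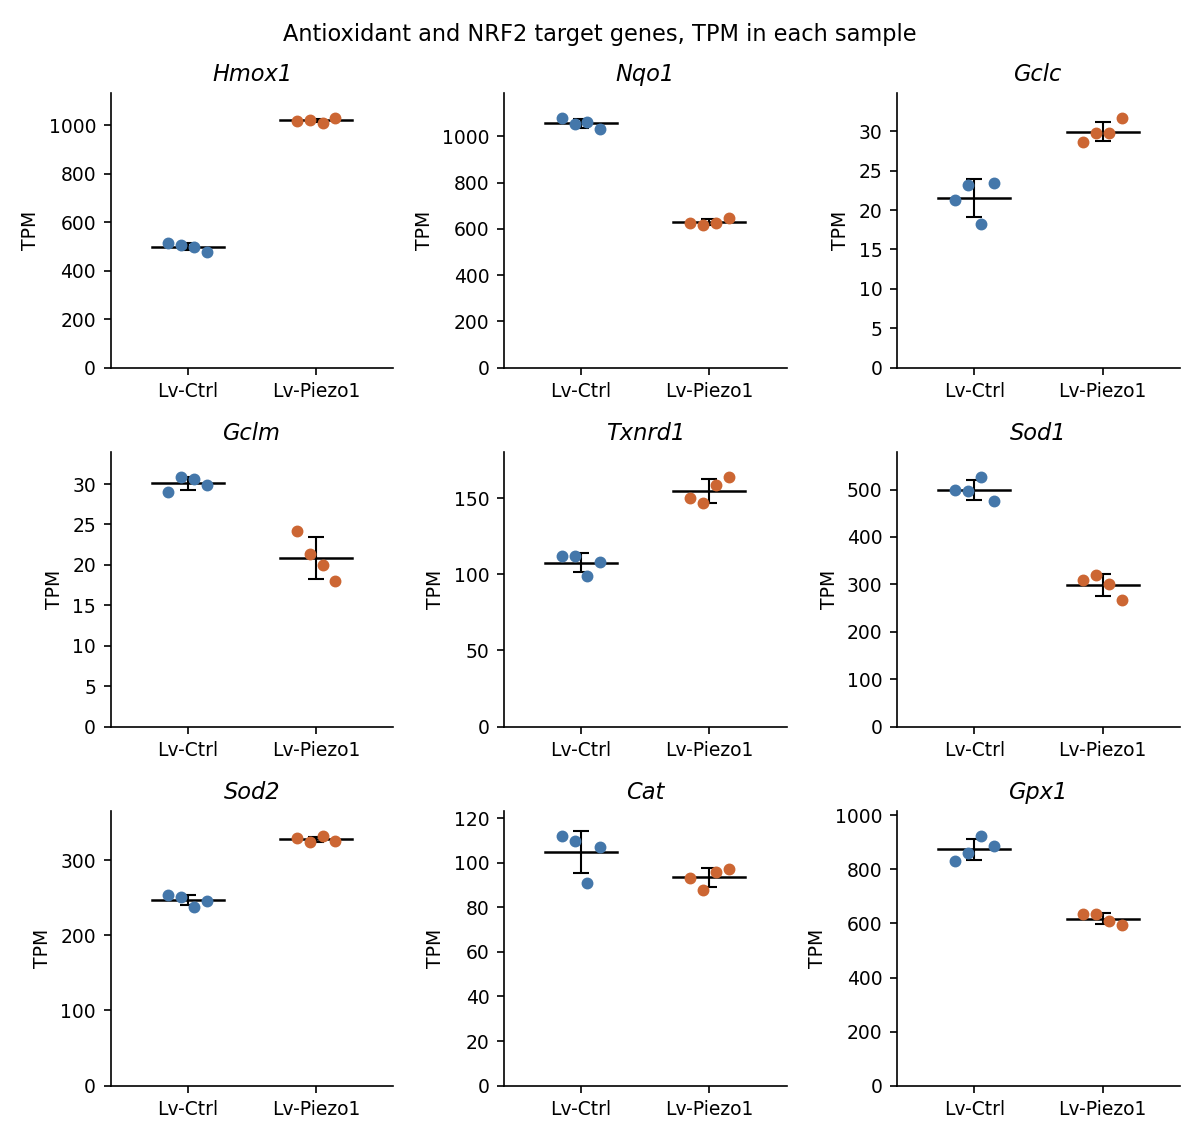
TPM of the 9 members in each sample of the Lv-Ctrl label (blue, 4 samples) and the Lv-Piezo1 label (orange, 4 samples), with every axis starting at 0. Points are samples, the horizontal line is the mean and the bar the SD. Hmox1, Gclc, Txnrd1 and Sod2 sit higher in the samples labelled Lv-Piezo1, Nqo1, Gclm, Sod1 and Gpx1 sit lower, and the groups of Cat overlap.

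Hmox1 (ENSRNOG00000014117) encodes the inducible enzyme that opens the heme ring to biliverdin, carbon monoxide and free iron. Its level was 514, 505, 497 and 478 TPM under the Lv-Ctrl label and 1017, 1021, 1009 and 1027 TPM under the Lv-Piezo1 label. The 4 samples labelled Lv-Piezo1 lay within a narrow range and far above every control, with no overlap. The mean went from 499 ± 15.5 to 1019 ± 7.52 TPM (SD, n = 4 each), 2.04 times as high, with a log2 fold change of 1.03 (SE 0.03, limma adjusted p = 1.03e-08). This difference stood at percentile 94.9 of all tested genes. After median-ratio scaling the log2 fold change was 0.87, below the 2-fold limit, so that no member was called there.

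The constitutive heme oxygenase gene Hmox2 was at 25.4, 24.1, 24.1 and 21.2 TPM under the Lv-Ctrl label and at 24.5, 26.3, 26.1 and 23.2 TPM under the Lv-Piezo1 label. These groups overlapped and the difference did not pass the test (log2 fold change 0.08, limma adjusted p = 0.329), and it changed sign after median-ratio scaling (-0.08) and quantile normalization (-0.06). A ratio of a pair of genes within a sample does not depend on the scaling of that sample. The ratio of Hmox1 to Hmox2 was 20.2, 21.0, 20.6 and 22.5 under the Lv-Ctrl label and 41.5, 38.8, 38.7 and 44.2 under the Lv-Piezo1 label. The inducible transcript was thus 21.1 ± 0.993 times as abundant as the constitutive one in controls and 40.8 ± 2.61 times in the other group, without overlap.

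Nqo1 (ENSRNOG00000012772) encodes a cytosolic enzyme that reduces quinones by an electron pair and so avoids the reactive semiquinone. Its TPM was 1077, 1054, 1060.5 and 1032 under the Lv-Ctrl label, and 625, 616, 624 and 646 under the Lv-Piezo1 label. Nqo1 therefore ran opposite to Hmox1, and no sample of one group came near the other. The mean fell from 1056 ± 18.6 to 628 ± 12.9 TPM, 40.5% lower (log2 fold change -0.75, SE 0.03, limma adjusted p = 4.27e-08), which is percentile 4.96 of all tested genes. Relative to the median of all tested genes, the difference was 0.89 for Hmox1 and -0.89 for Nqo1 on the log2 scale.

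Glutamate-cysteine ligase, the rate-limiting enzyme of glutathione synthesis, pairs a catalytic subunit (Gclc, ENSRNOG00000006302) with a modifier subunit (Gclm, ENSRNOG00000013409) that raises its efficiency. Gclc was at 21.3, 23.2, 18.2 and 23.5 TPM under the Lv-Ctrl label and at 28.6, 29.8, 29.8 and 31.6 TPM under the Lv-Piezo1 label. Gclm was at 29.0, 30.8, 30.6 and 29.9 TPM in the former and at 24.1, 21.3, 20 and 17.98 TPM in the latter. The transcripts of the 2 subunits moved in opposite directions, each without overlap. Gclc was higher by 0.46 on the log2 scale (SE 0.08, limma adjusted p = 7.21e-04), and Gclm was lower with a log2 fold change of -0.51 (SE 0.08, limma adjusted p = 4.30e-04). In the controls Gclm was the more abundant transcript in all 4 samples, and under the Lv-Piezo1 label Gclc was the more abundant in all 4. The ratio of Gclc to Gclm was 0.733, 0.751, 0.595 and 0.785 under the Lv-Ctrl label, and 1.19, 1.40, 1.49 and 1.76 under the Lv-Piezo1 label. The log2 difference of this ratio between the groups was 1.02.

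Txnrd1 (ENSRNOG00000009088) encodes the cytosolic selenoenzyme that keeps thioredoxin reduced. It was at 112, 112, 98.95 and 108 TPM under the Lv-Ctrl label and at 150.1, 147, 159 and 164 TPM under the Lv-Piezo1 label. The groups were apart by 34.6 TPM between their nearest samples. The log2 fold change was 0.52 (SE 0.05, limma adjusted p = 2.89e-05), with means of 108 ± 6.17 and 155 ± 7.82 TPM.

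Sod1 (ENSRNOG00000002115) and Sod2 (ENSRNOG00000019048) turn superoxide into hydrogen peroxide, the first with copper and zinc mainly in the cytosol and the second with manganese in the mitochondrial matrix. Sod1 was at 499, 497, 526 and 476 TPM under the Lv-Ctrl label, against 309.6, 319, 302 and 266 TPM under the Lv-Piezo1 label. For Sod2 the values were 254, 251, 238 and 245 TPM and 329, 324, 331 and 326 TPM. The transcript of the cytosolic enzyme was lower and that of the mitochondrial one higher in every sample labelled Lv-Piezo1 than in any control. Sod1 had a log2 fold change of -0.74 (SE 0.06, limma adjusted p = 5.86e-06) and Sod2 of 0.41 (SE 0.03, limma adjusted p = 3.21e-06). Within samples, the ratio of Sod2 to Sod1 was 0.509, 0.505, 0.452 and 0.515 in the controls and 1.06, 1.02, 1.098 and 1.22 under the Lv-Piezo1 label. Sod1 thus exceeded Sod2 in all 4 controls, and Sod2 exceeded Sod1 in all 4 samples labelled Lv-Piezo1 (log2 difference of the ratio 1.15).

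Gpx1 (ENSRNOG00000048812), the glutathione peroxidase of cytosol and mitochondria, and Cat (ENSRNOG00000008364), the catalase of peroxisomes, both break down hydrogen peroxide. Gpx1 was at 832, 861, 922 and 885 TPM under the Lv-Ctrl label and at 635, 634.5, 608 and 593 TPM under the Lv-Piezo1 label. It was lower without overlap, by 29.4% of the control mean (log2 fold change -0.50, SE 0.04, limma adjusted p = 6.03e-06). Cat was at 112, 109.9, 90.7 and 107 TPM in the former and at 93.0, 87.7, 95.7 and 97.1 TPM in the latter. Lv-Ctrl replicate 3 fell among the samples labelled Lv-Piezo1, so the groups overlapped. The log2 fold change of Cat was -0.16 (SE 0.07, 95% confidence interval -0.31 to -0.0097, limma adjusted p = 0.0651). Without Lv-Ctrl replicate 3 it was -0.23 and passed the test (limma adjusted p = 0.00164), as it did after median-ratio scaling (-0.32, limma adjusted p = 4.03e-04), after quantile normalization (-0.21, limma adjusted p = 0.0174) and with the mitochondrially encoded genes left out (-0.18, limma adjusted p = 0.0468). The ratio of Gpx1 to Cat was 7.44, 7.83, 10.2 and 8.29 under the Lv-Ctrl label and 6.83, 7.24, 6.35 and 6.11 under the Lv-Piezo1 label. It was lower under the Lv-Piezo1 label (log2 difference -0.34), with only a small gap between the groups.

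An exact two-sided permutation test of single genes, with 70 relabelings, gave p = 0.0286, the smallest it can give with 4 samples against 4, for each of the 8 members without overlap, and p = 0.114 for Cat. All 4 within-sample ratios also gave p = 0.0286 in the exact permutation test, and the adjusted value over the 4 ratios was 0.0286. Groups of 4 samples that do not overlap always give this smallest value, and adjustment leaves 4 equal values unchanged. These p-values therefore restate the lack of overlap and add nothing to it. For Gclc over Gclm and Sod2 over Sod1 the separation already follows from 2 genes without overlap in opposite directions. For Gpx1 over Cat the exact permutation p was 0.0571 without Lv-Ctrl replicate 3 (log2 difference -0.25) and without each of the samples labelled Lv-Piezo1 in turn (-0.38 to -0.30). The groups of this ratio stayed apart in each of these fits. With fewer samples the test has fewer relabelings, and the smallest exact permutation p seen with 1 sample left out was 0.029.

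**Figure D2:**
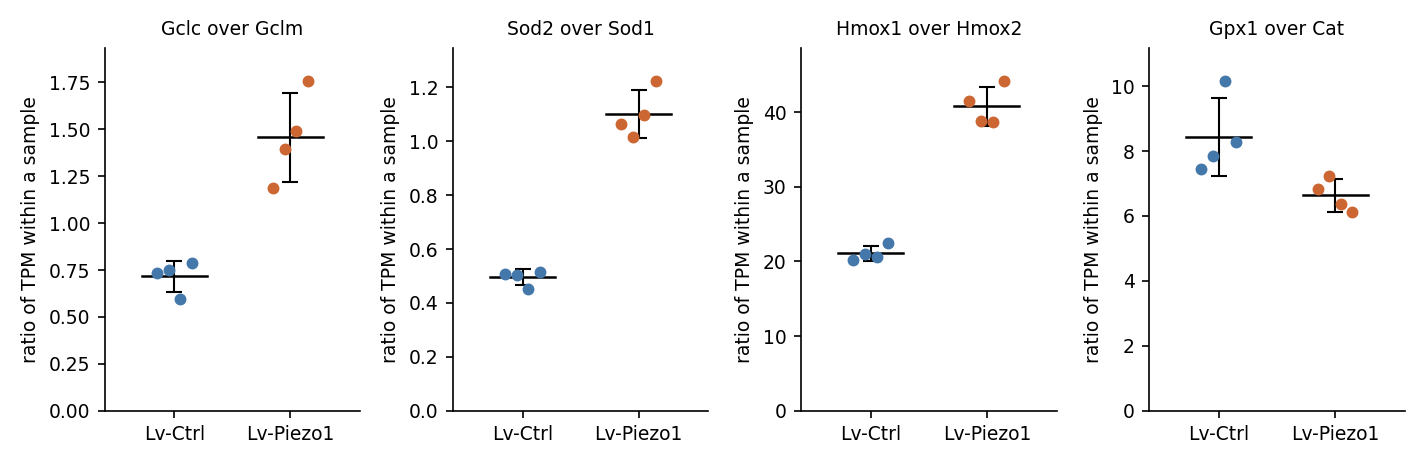
Ratio of the TPM of 2 genes within each sample for Gclc over Gclm, Sod2 over Sod1, Hmox1 over Hmox2 and Gpx1 over Cat, in the 4 samples of the Lv-Ctrl label (blue) and the 4 of the Lv-Piezo1 label (orange). Points are samples, lines means and bars SD. The first 3 ratios are about 2 times as high in the samples labelled Lv-Piezo1, and the groups of Gpx1 over Cat are separate but close, from 7.44 to 10.2 and from 6.11 to 7.24.

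The order of the members by level changed between the groups. In the samples labelled Lv-Ctrl it ran from Nqo1 over Gpx1, Sod1, Hmox1, Sod2, Txnrd1, Cat and Gclm to Gclc. The neighbours Sod1 and Hmox1 overlapped there, as did Txnrd1 and Cat. Under the Lv-Piezo1 label Hmox1 led, followed by Nqo1 and Gpx1, which overlapped, and then by Sod2, Sod1, Txnrd1, Cat, Gclc and Gclm. Among all 13103 tested genes, Hmox1 went from rank 305 to rank 166 by mean TPM, and Nqo1 from rank 161 to rank 247. Summed over the 9 members, the level was 3440 ± 40.6 TPM under the Lv-Ctrl label and 3190 ± 19.4 TPM under the Lv-Piezo1 label. The 5 inducible enzymes accounted for 1714 ± 34.7 and 1852 ± 23.3 TPM of this, and the 4 superoxide and peroxide enzymes for 1726 ± 34.8 and 1338 ± 39.3 TPM. The sum of the inducible enzymes hid the opposite courses of Hmox1 and Nqo1. All these sums are of the deposited TPM. The median-ratio factors were 0.899 to 0.972 under the Lv-Ctrl label and 1.04 to 1.09 under the Lv-Piezo1 label. Division by them would leave the inducible sum lower under the Lv-Piezo1 label, so its rise depended on the scaling.

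**Figure D3:**
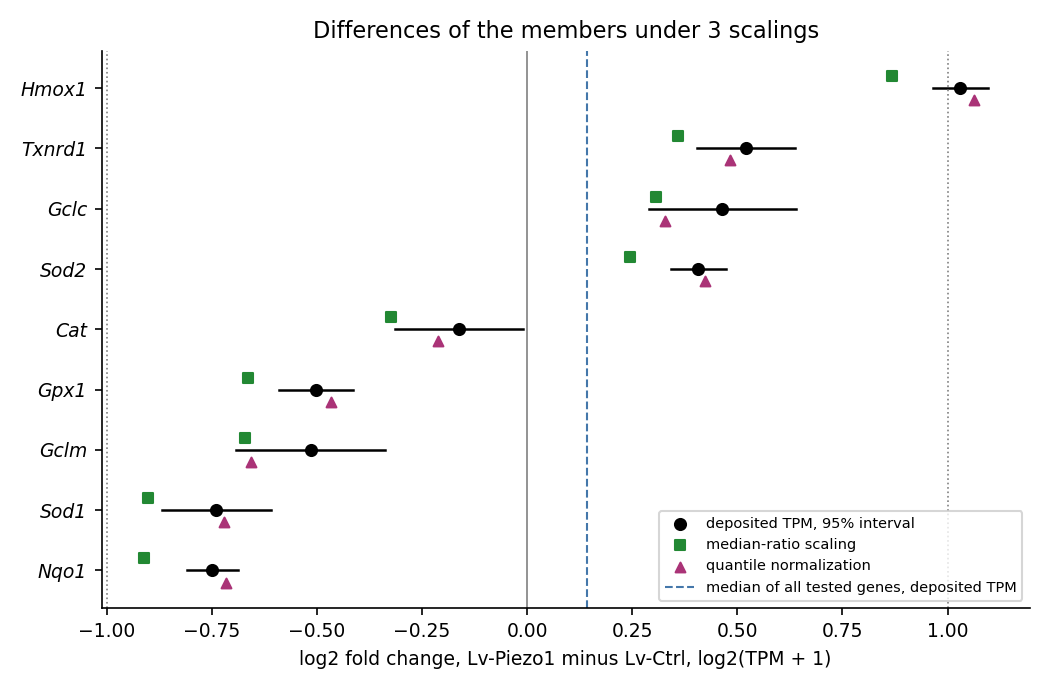
Log2 fold change, Lv-Piezo1 minus Lv-Ctrl, of the 9 members on the log2(TPM + 1) scale, with the 95% confidence interval for the deposited TPM (black circles) and the estimate after median-ratio scaling (green squares) and quantile normalization (purple triangles). The dashed line is the median of all tested genes with the deposited TPM (0.14) and the dotted lines mark 2-fold. Each member kept its sign under all 3 scalings, and Hmox1 passed 2-fold with the deposited TPM (1.03) and not after median-ratio scaling (0.87).

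Promoter sequences are shown for the members whose RefSeq window holds the core of the ARE, the letters TGACNNNGC read on either strand. Windows of assembly GRCr8 run from 250 bases before to 50 bases after the annotated start. Of the 10 members, 9 had such a window, 10 windows in all, and Hmox1 had none. The core was found in 3 of these 10 windows, those of Gclm, Txnrd1 and Sod2, and in 12.1% of all 33469 windows. Stretches around the match are given along the gene's strand, 5′ to 3′, with the match in capitals.
Gclm (chr2:213031937-213031997, plus strand, match 172 to 164 bases before the start): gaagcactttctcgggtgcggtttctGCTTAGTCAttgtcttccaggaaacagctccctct
Txnrd1 (chr7:22755948-22756008, minus strand, match 78 to 70 bases before the start): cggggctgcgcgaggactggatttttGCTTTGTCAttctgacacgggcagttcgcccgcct
Sod2 (chr1:50050169-50050229, minus strand, match 35 to 27 bases before the start): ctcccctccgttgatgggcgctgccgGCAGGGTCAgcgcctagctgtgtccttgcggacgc
In all 3 the capitals are the core on the opposite strand. Txnrd1 and Sod2 were higher under the Lv-Piezo1 label and Gclm was lower, so the members with a match did not share a direction. A match is a description of the letters and not a site of binding, and AREs outside these windows were not searched.

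The regulators Nfe2l2, Keap1 and Bach1 had log2 fold changes between -0.24 and 0.21. Nfe2l2 was at 77.4, 73.1, 69.2 and 78.5 TPM under the Lv-Ctrl label and at 83.7, 85.1, 88.2 and 87.9 TPM under the Lv-Piezo1 label, higher without overlap (log2 fold change 0.21, SE 0.04, limma adjusted p = 0.00326). After median-ratio scaling it was 0.05 and did not pass the test (limma adjusted p = 0.296). Keap1 was at 39.2, 39.2, 39.7 and 38.0 TPM and at 33.3, 33.6, 32.9 and 32.0 TPM, lower without overlap (log2 fold change -0.24, SE 0.03, limma adjusted p = 2.73e-04). Bach1 was at 19.0, 18.6, 13.2 and 17.9 TPM and at 14.4, 13.9, 15.5 and 18.4 TPM, and these groups overlapped (log2 fold change -0.13, SE 0.12, limma adjusted p = 0.393). Bach1 passed the test without Lv-Ctrl replicate 3 (-0.25, limma adjusted p = 0.0430), after median-ratio scaling (-0.28, limma adjusted p = 0.0422) and after quantile normalization (-0.29, limma adjusted p = 0.0375). Of the 14 tested genes in the list of regulators, 7 were higher and 3 lower, with a median log2 fold change of 0.19 beside 0.14 over all tested genes, and none reached 2-fold. By size the list was led by Sqstm1, the autophagy receptor p62 that binds KEAP1 and is itself an NRF2 target, which fell from 1044 ± 15.1 to 731 ± 19.9 TPM (log2 fold change -0.51, limma adjusted p = 6.58e-07). Palb2, which can bind KEAP1 and is better known for DNA repair, was low at 0.925 ± 0.134 and 1.595 ± 0.361 TPM (log2 fold change 0.42, limma adjusted p = 0.0204). It did not pass after quantile normalization (0.18, limma adjusted p = 0.268) or median-ratio scaling (0.335, limma adjusted p = 0.0512), nor without Lv-Ctrl replicate 2 (0.39, limma adjusted p = 0.0506) or Lv-Piezo1 replicate 1 (0.33, limma adjusted p = 0.0553).

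The 9 lists of related genes, the regulators included, held 155 distinct genes. Of these, 151 had a row and 127 were tested. At an adjusted p below 0.05, 49 were higher and 39 lower, and 39 did not pass. Over all tested genes, 41.9% were higher and 16.3% lower. These counts by direction, and those of each list, use the deposited values, and over all tested genes the balance depended on the scaling. Called were 3 higher and 5 lower genes, 8 of 127 beside 7.67% of all tested genes. The median log2 fold change was 0.08, beside 0.14 over all tested genes, with genes on both sides of 0 as among the members.

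Among 31 other NRF2 targets, 10 were higher and 13 lower, with a median log2 fold change of -0.0034. Pir, which encodes the iron-containing protein pirin, was the one called gene and fell from 110.0 ± 3.41 to 48.0 ± 1.34 TPM (log2 fold change -1.18, SE 0.04, limma adjusted p = 1.53e-08). Of 26 genes of the glutathione system, 6 were higher and 10 lower (median -0.08). Gpx3, the secreted glutathione peroxidase, was at 489 ± 17.6 TPM under the Lv-Ctrl label and 219 ± 5.16 TPM under the Lv-Piezo1 label (log2 fold change -1.16, limma adjusted p = 1.30e-08). Chac1, which degrades glutathione in the cytosol, fell from 128 ± 4.62 to 58.4 ± 1.45 TPM (log2 fold change -1.12, limma adjusted p = 2.18e-08). Ggt7, a member of the gamma-glutamyltransferase family, rose from 11.9 ± 0.437 to 25.5 ± 0.587 TPM (log2 fold change 1.04, limma adjusted p = 9.71e-08), and stood at 0.89 after either quantile normalization or median-ratio scaling, below the 2-fold limit.

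The thioredoxin and peroxiredoxin list had 6 higher and 8 lower genes of 20 tested (median 0.01). Msra, which reduces oxidised methionine, was at 6.33, 5.72, 5.10 and 6.73 TPM under the Lv-Ctrl label and at 2.42, 2.59, 1.94 and 2.99 TPM under the Lv-Piezo1 label (log2 fold change -1.003, SE 0.11, limma adjusted p = 7.05e-05). It lay at the 2-fold limit and was no longer called without Lv-Ctrl replicate 1 (-0.98) or 4 (-0.95), or without Lv-Piezo1 replicate 1 (-0.9967) or 3 (-0.92). The list of other superoxide dismutase, peroxisomal and partner genes had 3 higher and 4 lower of 12 tested (median -0.10). Sod3, the superoxide dismutase secreted into the matrix, was at 3621, 3552, 3353.5 and 3321 TPM under the Lv-Ctrl label and at 1170.3, 1173, 1182.5 and 1152 TPM under the Lv-Piezo1 label. It was the most abundant dismutase transcript in every sample, and its mean was 66.2% lower under the Lv-Piezo1 label (log2 fold change -1.56, SE 0.03, limma adjusted p = 2.19e-09), beside 40.1% for Sod1.

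Of 14 heme and iron genes, 6 were higher and 4 lower (median 0.15). Por, which passes electrons to heme oxygenase and to cytochrome P450 enzymes, was at 251 ± 8.25 and 170.1 ± 2.86 TPM (log2 fold change -0.56, limma adjusted p = 7.71e-07). Ftl1, the light chain of the iron store ferritin, was at 7365 ± 530 and 10388 ± 329 TPM (log2 fold change 0.50, limma adjusted p = 3.75e-05), and at 0.34 and 0.93 after median-ratio scaling and quantile normalization. Its symbol stands on more than 1 row, and reads shared among the copies cannot be told apart, so its value is uncertain. Of 12 genes of selenoprotein synthesis and other selenoproteins, 5 were higher and 3 lower (median 0.16). Txnrd1 and Gpx1 depend on the synthesis genes for their selenocysteine. Of these, Sephs2, Pstk and Eefsec were higher, and Secisbp2, Sephs1 and Sepsecs did not pass the test. The 3 lower genes, Selenot, Selenof and Selenon, encode other selenoproteins. Eefsec, the elongation factor for selenocysteine, rose from 7.37 ± 0.491 to 11.9 ± 0.431 TPM (log2 fold change 0.62, limma adjusted p = 2.04e-05). Sephs2, which makes the selenium donor, went from 11.6 ± 0.774 to 14.6 ± 0.481 TPM (log2 fold change 0.30, limma adjusted p = 0.00127), and did not pass after quantile normalization (0.13, limma adjusted p = 0.0562).

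Oxidant-producing enzymes were tested for 8 of 20 genes, since the other genes of that list stayed below a mean of 1 TPM. Of the 8, 6 were higher and 1 lower (median 0.20). Ero1a, which forms hydrogen peroxide while oxidising proteins in the endoplasmic reticulum, was at 24.7, 25.5, 22.8 and 26.6 TPM and at 50.5, 47.4, 43.7 and 52.7 TPM (log2 fold change 0.94, SE 0.07, limma adjusted p = 3.64e-06). Xdh, xanthine dehydrogenase, fell from 84.1 ± 6.86 to 50.2 ± 3.00 TPM (log2 fold change -0.73, limma adjusted p = 1.58e-05). Metallothioneins, small cysteine-rich proteins that bind zinc and copper, had 2 tested genes, both called higher. Mt2A was at 1019, 1154, 1293 and 1119 TPM under the Lv-Ctrl label and at 3633, 3534, 3433 and 3509 TPM under the Lv-Piezo1 label, 3.08 times as high (log2 fold change 1.63, SE 0.06, limma adjusted p = 7.68e-08). Mt3 was listed at 0 in 2 controls and at 0.57 and 1.70 in the other 2, against 1.62, 2.88, 3.33 and 2.64 TPM under the Lv-Piezo1 label, so that its groups overlapped (limma adjusted p = 0.00681).

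**Figure D4:**
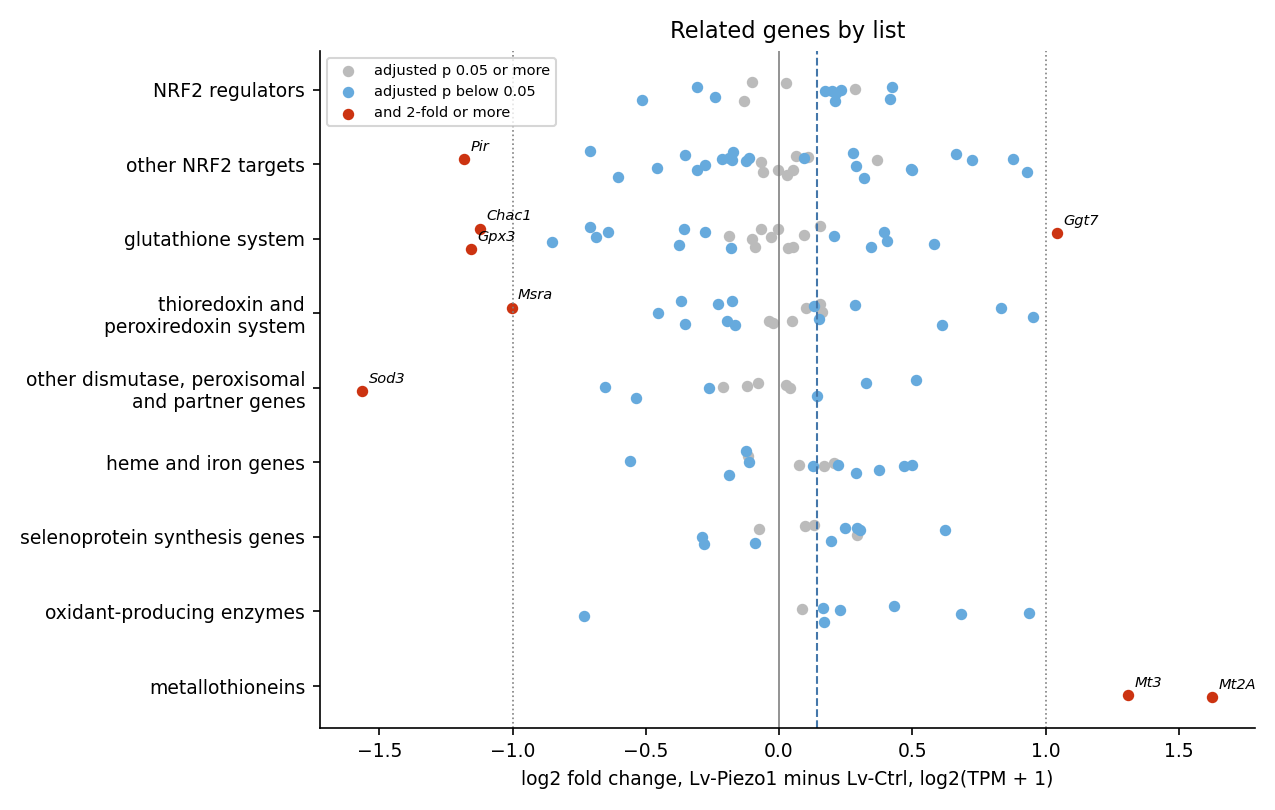
Log2 fold change, Lv-Piezo1 minus Lv-Ctrl, on the log2(TPM + 1) scale for the tested genes of the 9 related lists, 1 point per gene and list. Grey points have an adjusted p of 0.05 or more, blue points less than 0.05, and red points also differ by at least 2-fold, which the dotted lines mark. The dashed line is the median of all tested genes (0.14). Most lists spread to both sides of 0, from Sod3 at -1.56 to Mt2A at 1.63.

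Of the 8 called related genes, 6 had a promoter window and 2 of these held the ARE core, Pir and Mt2A, which differed in opposite directions. Both are shown in the same way, with the core in capitals.
Pir (chrX:33851129-33851189, minus strand, match 114 to 106 bases before the start): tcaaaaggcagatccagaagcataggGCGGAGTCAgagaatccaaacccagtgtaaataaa
Mt2A (chr19:10838911-10838958, minus strand, match 237 to 229 bases before the start): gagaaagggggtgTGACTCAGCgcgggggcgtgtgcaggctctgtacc
Mt2A reads the core forward along the gene and Pir on the opposite strand, where a second match lies 9 to 1 bases before the start. The AP-1 motif TGANTCA, whose letters can overlap the ARE core as in Mt2A, was found in 7.33% of all windows and, among the members, only in that of Srxn1.

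Markers of other cell types differed between the groups beside these genes. Of 10 smooth muscle and pericyte markers, 8 were tested. All 8 were higher under the Lv-Piezo1 label at an adjusted p below 0.05, beside 41.9% of all tested genes. The summed level was 442 to 451 TPM under the Lv-Ctrl label and 4551 to 4722 TPM under the Lv-Piezo1 label. It was carried mainly by Tagln (219 ± 4.64 and 2730 ± 41.2 TPM) and Acta2 (51.2 ± 2.27 and 1344 ± 40.5 TPM). Pdgfrb was at 106 ± 4.48 and 118 ± 2.28 TPM, and Rgs5 stayed below 1 TPM. The summed nucleus pulposus and chondrocyte markers spanned 39.5 to 45.1 TPM in the controls and 74.8 to 82.9 TPM in the other group. Of this list 3 of 5 tested genes were higher, and the sum was carried mainly by Cd24 (3.79 ± 0.207 and 21.9 ± 1.91 TPM) and Acan (31.6 ± 2.95 and 47.1 ± 1.82 TPM). Sox9 was at 3.89 ± 0.428 and 3.86 ± 0.259 TPM, Col2a1 stayed below 1 TPM, and T was listed at 0 in every sample. The 10 macrophage and leukocyte markers summed to 21.8 to 23.6 TPM and 37.3 to 42.3 TPM, of which Cd14 and Cd68 were the only ones tested. Ptprc reached at most 0.01 TPM in any sample, and 3 of these markers were listed at 0 in every sample. Of 8 erythroid markers, relevant to Hmox1 as a heme enzyme, 6 had a row, and these summed to at most 2.26 TPM in any sample. The globin genes Hbb and Hba1 had no row under these symbols, so the sum leaves them out. Endothelial markers summed to at most 0.62 TPM in any sample. The 13 mitochondrially encoded genes held 6.87% to 7.74% of TPM under the Lv-Ctrl label and 5.69% to 6.16% under the Lv-Piezo1 label. The part of the fibroblast, smooth muscle, chondrocyte and macrophage markers in the differences of the antioxidant genes was not tested.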

How the data were processed

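RNA-seq covered 8 samples of stretched AFCs, 4 per label (Lv-Ctrl, Lv-Piezo1). Reads were trimmed by the authors, mapped to the rat genome with HISAT2 and assembled with StringTie. The deposited values are TPM, given for each sample and as group means, with the same total in every sample. The methods describe FPKM and the DESeq package, the submitters' processing notes name DESeq2 and the build mm10, and the rows carry rat Ensembl identifiers. The genome release and how TPM was made are not given in the sources used here. TPM keeps no depth, so the precision rests on the spread between the samples, with the variance of each gene moderated by limma over all tested genes. No count model was used, since these values are not counts.

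Where a symbol stood on several rows, the row with the highest mean TPM was used. The 13103 genes whose TPM averaged 1 or more were tested as log2(TPM + 1) with limma 3.58.1 (R 4.3.3; empirical Bayes with a trend, Benjamini-Hochberg adjustment), without a block. Called genes had an adjusted p below 0.05 and differed by at least 1 on the log2 scale. For single genes and ratios a two-sided exact permutation test was used. The script was tested on simulated data. Members and lists were chosen with earlier results of these data known. Named genes are the members, Piezo1, Nfe2l2, Keap1, Bach1, Hmox2, and in each related list the called genes (up to 3 rises and 3 falls), or the 2 largest changes past the adjusted p where none was called. Promoter windows came from RefSeq (GRCr8). Alternatives were quantile normalization or median-ratio scaling, mitochondrially encoded genes left out, a filter at 5 TPM or none, a pseudocount of 0.1, no trend, a replicate block, and each sample left out in turn. The number of repeats in the paper implies that the groups share cell isolations, but the sources do not tie the repeat numbers to them. The deviations of same-numbered samples correlated at -0.0576 to -0.0124, so the numbers were not used to pair samples. Those of differently numbered samples correlated at -0.0867 to 0.112, so the correlations did not show which samples share an isolation.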

Additional observations from a re-analysis of the deposited data

Results flagged for a closer look

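Chac1 stood at 60.5 TPM in the sample labelled Lv-Piezo1 replicate 2, while the other 3 samples of its group were at 57.4 to 57.9 TPM. The gap to the nearest sample was 0.843 of the range of the group, above Dixon's 95% critical value for 4 samples. Of 68 such tests this was the one past the limit, where chance gives about 1 in 20. All 4 values were below the lowest control (122 TPM).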

How the results depend on the processing

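Hmox1, Nqo1, Gclc, Gclm, Txnrd1, Sod1, Sod2 and Gpx1 kept their direction and an adjusted p below 0.05 in all 16 alternatives, with log2 fold changes from 0.87 to 1.06 for Hmox1 and from -0.91 to -0.72 for Nqo1. With a mean TPM of at least 5, 628 genes were called in place of 1005, of fewer genes tested (9719). A pseudocount of 0.1 gave 1438. After median-ratio scaling 0 members were called by limma, while 9 of 9 passed an adjusted p below 0.05. Hmox2 reversed to -0.07991 and -0.06208 after median-ratio scaling and quantile normalization. Palb2 no longer passed the test in 4 alternatives, quantile normalization (limma adjusted p = 0.268), median-ratio scaling (0.0512), without Lv-Ctrl replicate 2 (0.0506) and without Lv-Piezo1 replicate 1 (0.0553), and the cause was not tested. Same-numbered samples are known to share only a number, and the pairing by isolation could not be recovered from it. With the replicate number as a replicate block, 1004 genes were called, 1 member, and 8 related genes, and 4 members were higher and 4 lower. In the exact sign-flip test over the 4 numbered pairs each ratio had p = 0.125, the smallest that design can give. The ratio of Gpx1 to Cat had an exact permutation p of 0.0571 in 5 of the 8 fits with 1 sample left out, those without Lv-Ctrl replicate 3 (log2 difference -0.25) and without each of the samples labelled Lv-Piezo1. The groups of this ratio did not overlap in any of these fits. Depth is unknown with TPM, so the error of low genes such as Palb2 and Mt3 cannot be set beside a counting error.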

Other observations

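Within the groups, Lv-Piezo1 replicate 4 was the lowest or the highest sample of its group for 8 of the 9 members. Lv-Ctrl replicates 1 and 3 were so for 6 members each. Every gene has a lowest and a highest sample among the 4 of a group, so such counts arise without any difference between samples. In Lv-Piezo1 replicate 4 Hmox1, Nqo1, Gclc, Txnrd1 and Cat were at their highest and Gclm, Sod1 and Gpx1 at their lowest. Lv-Ctrl replicate 3 had the lowest Gclc, Txnrd1, Sod2 and Cat of the controls and their highest Sod1 and Gpx1. Lv-Ctrl replicate 1 had the lowest Gclm and Gpx1 of the controls and their highest Hmox1, Nqo1, Sod2 and Cat. The median-ratio factor of Lv-Ctrl replicate 3 was 0.899, the lowest of all samples, and that of Lv-Piezo1 replicate 4 was 1.09, the highest.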
